A study of Arabidopsis thaliana with 6 samples.

Results

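APETALA3 (AP3, AT3G54340) and PISTILLATA (PI, AT5G20240) are the petal and stamen identity genes of Arabidopsis thaliana. They were chosen by locus, as 2 of 27444 protein-coding nuclear genes, and a SEP3 peak was assigned to a gene when its summit fell inside that gene or at most 3 kb away. By this rule each gene had 1 peak in each line, which gives 2 of 3601 peaks for the tetramerization-deficient SEP3 and 2 of 2225 peaks for wild-type SEP3. The study mapped binding of SEPALLATA3 (SEP3) by chromatin immunoprecipitation and sequencing (ChIP-seq) in inflorescences of long-day plants. The groups were SEP3tet (pSEP3:SEP3tet;sep1,2,3), a SEP3 that cannot form tetramers, with 2 ChIP samples and 1 mock sample, and SEP3wt (pSEP3:SEP3wt;sep1,2,3), wild-type SEP3, with 2 ChIP samples and 1 mock sample. All plants carried the sep1,2,3 mutant background and a SEP3 transgene named for the SEP3 promoter, so the binding measured is that of a rescue construct. ChIP used a native SEP3 antibody and the mocks used pre-immune serum. Tissue from whole inflorescences mixes many cell types, so occupancy in petals and stamens cannot be told apart from that in other organs, nor can fewer bound cells be told apart from weaker binding per cell.

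AP3 and PI encode MADS-domain transcription factors, the B-class proteins of the floral organ identity model. They bind DNA as an obligate heterodimer and keep their own transcription going in developing petals and stamens. In flowers the AP3-PI dimer joins SEP3 and AP1 in complexes that specify petals, and SEP3 and AG in complexes that specify stamens, so SEP3 is both a partner of the B-class proteins and a candidate regulator of their genes. MADS-domain dimers recognise CArG boxes in DNA, and a tetramer can hold a pair of such sites with the DNA looped between them.

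The deposited data were 1 peak list per line, and each value below belongs to a line and not to a replicate. The authors' fold enrichment compares ChIP signal with background at the summit, as the peak format defines it, and the −log10 q is their peak caller's significance after multiple testing, higher for stronger peaks. Folds ran from 1.97 to 11.9 with a median of 3.65 in SEP3tet, and from 1.98 to 10.8 with a median of 3.38 in SEP3wt. The fold and q values were used to place a peak within its own list. Sequencing depth is unknown here, mock signal was not analysed here, and with no value per replicate no difference between the lines could be tested.

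AP3 carried a single SEP3 peak in both lines, and it stood among the strongest of the SEP3tet list. In SEP3tet the peak lay at chromosome 3, 20120999 to 20121625 (TAIR10), with the summit at 20121239, a fold of 8.52 and a −log10 q of 34.8. In SEP3wt the peak lay at 20121114 to 20121371, with the summit at 20121228, a fold of 4.63 and a −log10 q of 12.3. Both summits lay inside the AP3 gene near its high-coordinate end, and both peaks ran past that end into the space before the next gene. The summits were 11 bp apart, and the SEP3wt peak lay wholly within the wider SEP3tet peak, covering 41.1% of it. Of the 1726 peak pairs that overlapped only each other, 27.3% had summits this close or closer, and the median gap was 25 bp.

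**Figure D1:**
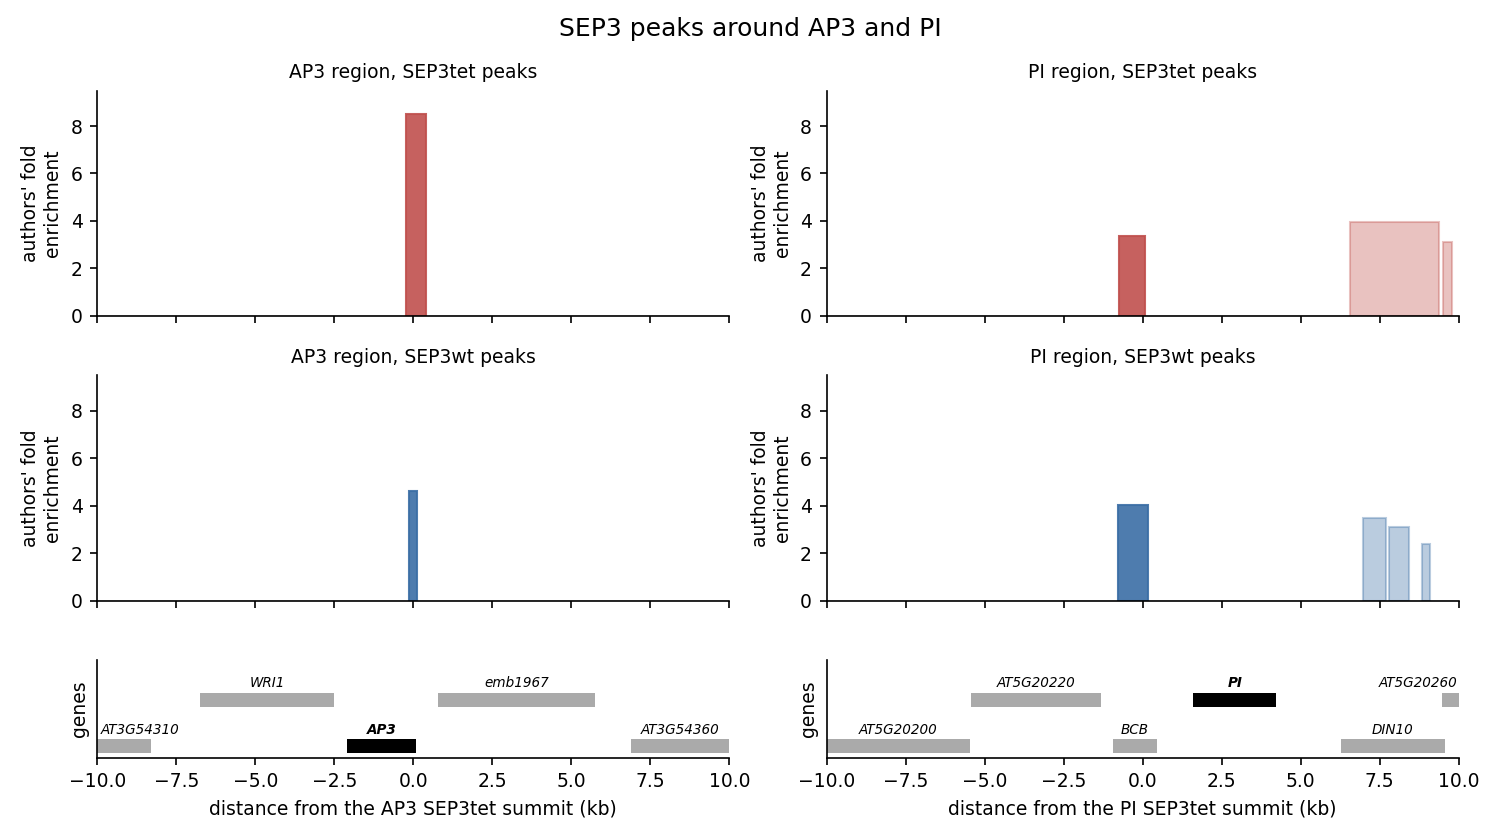
Peaks within 10 kb of the AP3 summit (left) and of the PI summit (right), with distance in kb from the SEP3tet summit on the x axis and the authors' fold enrichment, on a linear axis from 0, as bar height. SEP3tet peaks are in the upper row and SEP3wt peaks in the middle row; pale bars have their summit more than 3 kb from the gene, and gene spans in the lower row come from the RefSeq table. The AP3 peaks (8.52 in SEP3tet, 4.63 in SEP3wt) stand alone over one end of AP3, while the PI peaks (3.35 in SEP3tet, 4.01 in SEP3wt) lie over BCB.

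The AP3 peak held place 83 of 3601 by fold in the SEP3tet list, within its top 2.30%, and place 463 of 2225 in the SEP3wt list, within its top 20.8%. By −log10 q its places were 91 in SEP3tet and 473 in SEP3wt, close to those by fold. It was 627 bp wide in SEP3tet, among the widest 8.83% of that list, and 258 bp wide in SEP3wt, where 50.7% of peaks were as wide or wider. No other peak lay close: the next summit on the chromosome was 13.4 kb away in SEP3tet and 49.5 kb away in SEP3wt, and 27.5% of SEP3tet peaks and 10.5% of SEP3wt peaks were as isolated. The neighbour in SEP3tet was a weak peak beside VAMP727, a vesicle-trafficking gene, with a fold of 2.54 and a −log10 q of 1.79. The AP3 peak was also the only peak counted for both gene neighbours, WRI1, a regulator of seed oil synthesis, and emb1967, a gene named for an embryo-defective mutant. AP3 was the nearest gene of the summit in both lines.

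PI was a target in both lines by the same rule, but its peak sat on another gene and was of middling fold. In SEP3tet the peak lay at chromosome 5, 6826549 to 6827376, with the summit at 6827298, a fold of 3.35 and a −log10 q of 9.22. In SEP3wt it lay at 6826530 to 6827472, with the summit at 6827272, a fold of 4.01 and a −log10 q of 12.2. Both summits were in the body of BCB (AT5G20230), a blue copper binding protein gene next to PI, and were 1 to 3 kb from PI itself. The peak body ended before PI in both lines, and no peak of either list had its summit in the PI gene or within 1 kb of it. The summits were 26 bp apart, a gap that 51.2% of the 1726 pairs matched or undercut, and the SEP3tet peak lay wholly within the SEP3wt peak, covering 87.8% of it.

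The PI peak held place 2211 of 3601 by fold in the SEP3tet list, so that 61.4% of peaks were as high or higher, and place 713 of 2225 in the SEP3wt list, within the top 32.0%. By −log10 q it stood higher, at place 1208 in SEP3tet (top 33.5%) and place 475 in SEP3wt (top 21.3%). It was broad, at 828 bp in SEP3tet and 943 bp in SEP3wt, among the widest 4.92% and 8.36% of those lists, and its summit was off centre, 78 bp from the high-coordinate edge in SEP3tet and 200 bp from it in SEP3wt. Among 511 other SEP3tet peaks with a fold within 5% of the PI peak's, the median −log10 q was 5.21 and the median width 226 bp, and 99.8% had a lower −log10 q than PI. Among 176 such peaks of the SEP3wt list the median −log10 q was 9.01 and the median width 304 bp, and 98.9% had a lower −log10 q. The AP3 peak had no such excess: its −log10 q equalled the median of the 46 SEP3tet peaks and of the 158 SEP3wt peaks with a fold like its own. A high −log10 q for the fold was not particular to PI. In SEP3wt the strongest peak of the SEP3 gene had a fold of 3.97 and a −log10 q of 28.6, beside 4.01 and 12.2 for PI. In SEP3tet the SEP3 gene had 7.70 and 48.5, beside 7.75 and 29.3 for the strongest peak of AP2.

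**Figure D2:**
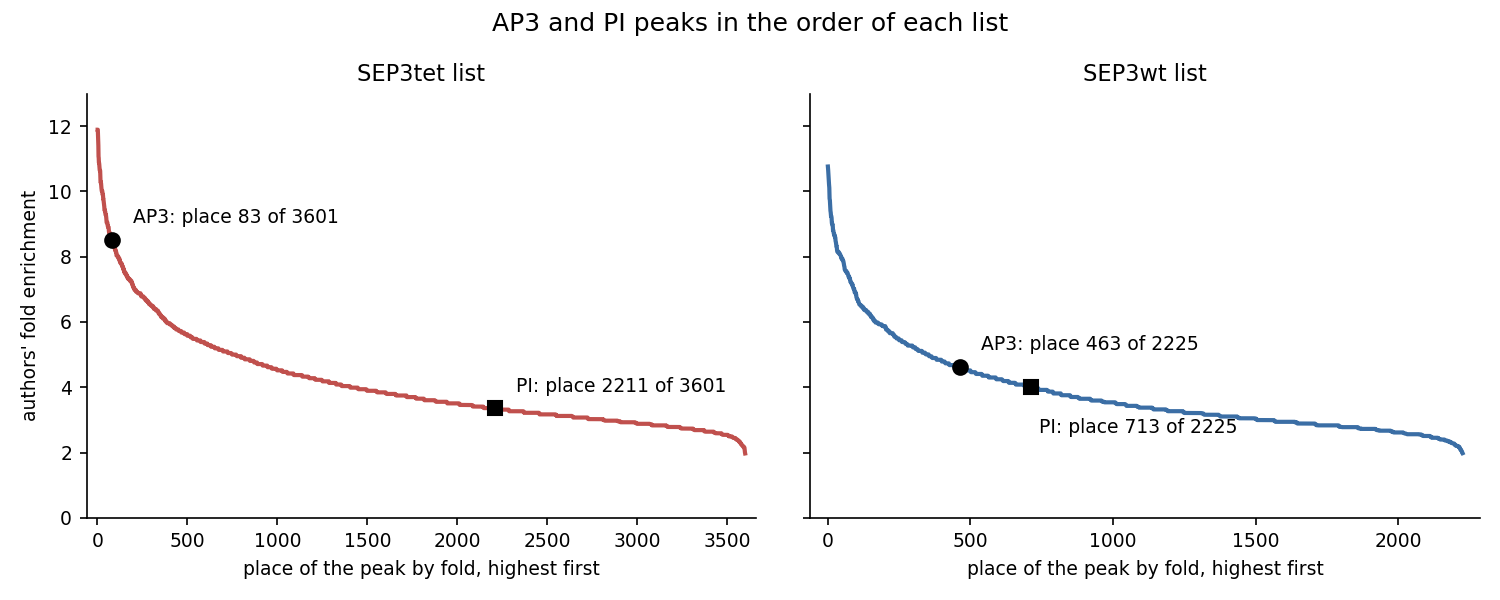
The authors' fold enrichment (y axis, linear) of every peak in the SEP3tet list (left) and the SEP3wt list (right), ordered from the highest, with place in the list on the x axis. AP3 (circle) holds place 83 of 3601 in SEP3tet and 463 of 2225 in SEP3wt; PI (square) holds place 2211 in SEP3tet and 713 in SEP3wt.

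On the far side of PI, peaks of both lines covered DIN10 (AT5G20250), a raffinose synthase gene, with summits beyond the 3-kb window. In SEP3tet this was 1 wide peak of 2809 bp (chromosome 5, 6833867 to 6836675), place 15 of 3601 by width, with a fold of 3.95 and a −log10 q of 8.78. In SEP3wt the same stretch held 3 separate peaks, of 708, 644 and 241 bp, with folds of 3.48, 3.10 and 2.36. Each of these 4 summits lay in the body of DIN10 and came within 5 kb of PI. PI thus lay between peaks on the bodies of its 2 neighbours in both lines. On the DIN10 side these were 1 wide peak in SEP3tet and 3 narrower ones in SEP3wt. AP3 instead had its own summit and none in the body of a neighbour.

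In the order of peaks by fold, AP3 stood higher in SEP3tet than in SEP3wt and PI stood lower, as a description of these 2 lists. Because the lists differ in length, places were also taken among the 1726 pairs that overlapped only each other, which has the same length in both lines. The AP3 pair held place 81 by SEP3tet fold and place 432 by SEP3wt fold, so 4.69% and 25.0% of paired peaks were as high or higher, and AP3 stood 20.3 percentage points higher in the SEP3tet order. The PI pair held place 1420 by SEP3tet fold and place 656 by SEP3wt fold, or 82.3% and 38.0%, and PI stood 44.3 percentage points lower in the SEP3tet order. Over all pairs the median shift in either direction was 14.7 percentage points, 38.1% of pairs shifted at least as far as AP3, and 11.0% at least as far as PI. These shifts are by fold alone, and the pairs were not ranked by −log10 q. In the full lists PI was at 61.4% in SEP3tet and 32.0% in SEP3wt by fold. By −log10 q its places were closer, at 33.5% in SEP3tet and 21.3% in SEP3wt. No replicate value was held to set against either shift.

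**Figure D3:**
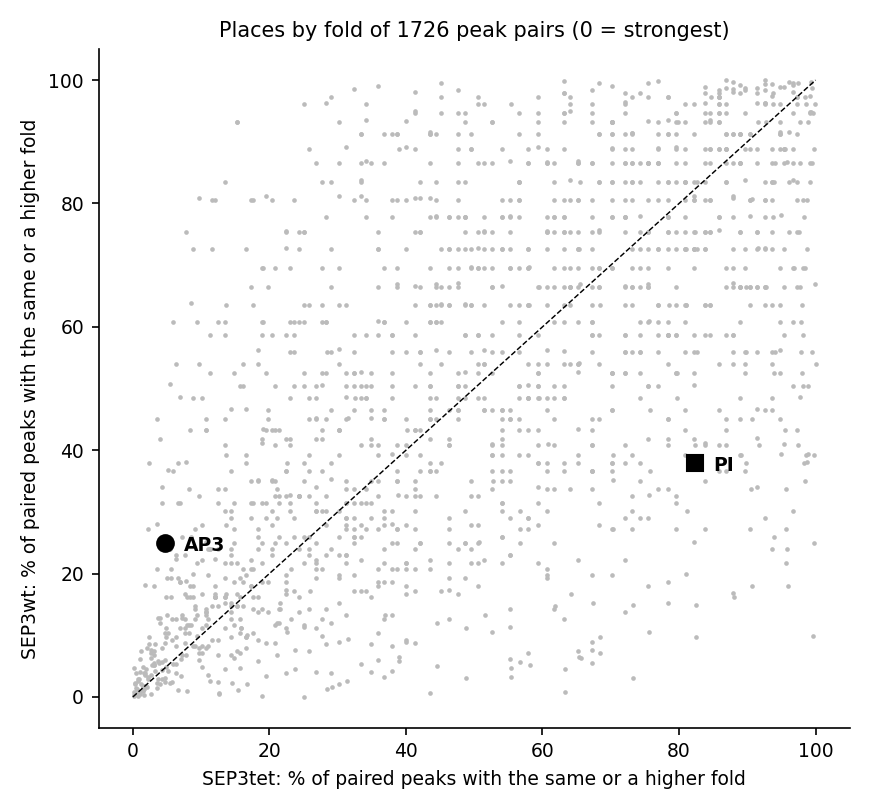
Each grey point is 1 of the 1726 peak pairs that overlapped only each other, placed by the percentage of paired peaks with the same or a higher fold in SEP3tet (x axis) and in SEP3wt (y axis), 0 being the strongest; the dashed line marks equal places. AP3 (circle; 4.69% in SEP3tet, 25.0% in SEP3wt) lies above the line and PI (square; 82.3% in SEP3tet, 38.0% in SEP3wt) below it.

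Both genes were targets of both lines, 2 of 2, beside 21.2% of all protein-coding genes in SEP3tet, 13.7% in SEP3wt and 12.4% in both. Of all peaks, 53.3% in SEP3tet overlapped a SEP3wt peak and 84.7% in SEP3wt overlapped a SEP3tet peak. Having a single summit was the common case, as 76.2% of SEP3tet targets and 79.8% of SEP3wt targets had 1. Each AP3 and PI summit fell in the windows of 3 genes, as did 31.5% of SEP3tet and 33.0% of SEP3wt summits for 3 genes or more.

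The call on AP3 did not hang on the window, while the call on PI did. AP3 was a target in both lines with summits in the gene body alone (4.53% of genes in SEP3tet, 3.11% in SEP3wt), within 1 kb (12.3% in SEP3tet, 7.79% in SEP3wt) and where each summit was given only to its nearest gene (10.6% in SEP3tet, 6.74% in SEP3wt). PI was a target of neither line under these 3 rules. A window of 5 kb (29.5% in SEP3tet, 19.7% in SEP3wt) kept both genes, as did equal numbers of strongest peaks by −log10 q in both lists (14.6% in SEP3tet, 13.7% in SEP3wt). With peaks of a −log10 q of at least 10 only (7.76% in SEP3tet, 4.60% in SEP3wt), PI was left as a target in SEP3wt and not in SEP3tet, where its −log10 q was 9.22.

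Genes that act with AP3 and PI were compared through 4 lists of 25 genes in all, namely upstream regulators, MADS partners, relatives in the B-sister clade and genes reported to be controlled by AP3 and PI. Of the 25 genes, 14 (56.0%) were targets in SEP3tet and 12 (48.0%) in SEP3wt, beside the 21.2% and 13.7% of all genes above, and 11 were targets in both lines. The lists were chosen with earlier results of these data known, so these shares are a description and enrichment was not tested. A strongest peak within 3 kb need not lie nearest to the listed gene, and PI was not alone in this. Those of SOC1, SEP3 and RBE lay nearest to another gene in both lines, and those of AP2 and SVP did so in SEP3tet. The same is given below for TT16, GNL and SPL/NZZ. AP3 held place 2 of 16 by its strongest fold among the listed targets and members in SEP3tet, after SOC1, and place 6 of 14 in SEP3wt. PI held place 14 of 16 in SEP3tet and place 9 of 14 in SEP3wt. The 2 members thus bracketed most of the pathway in SEP3tet and lay near its middle in SEP3wt.

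Of 13 upstream regulators, 7 were targets in SEP3tet and 6 in SEP3wt. LFY, which activates AP3 and PI in young flowers, had 1 peak in its gene body in SEP3tet (chromosome 5, 24845917 to 24846269), with a fold of 3.36, and none in SEP3wt. This SEP3tet peak was weak: 61.3% of the list matched or exceeded its fold, and its −log10 q was 5.21. LFY was no target in SEP3tet with a −log10 q of at least 10 or with equal numbers of strongest peaks. UFO, the F-box partner of LFY in the activation of AP3, had no summit in its window in either list. SUP, which keeps AP3 and PI activity out of the carpels, had 2 summits in SEP3tet, the stronger with a fold of 5.05 and in the top 20.6% of the list, and 1 in SEP3wt with a fold of 3.18, which 59.2% of peaks matched or exceeded. RBE, a petal growth gene, had 2 summits in each line, with a highest fold of 4.76 in SEP3tet and 2.89 in SEP3wt. For RBE, AP2 and SVP the strongest peaks of the 2 lines did not overlap, so their values are not those of 1 site. For AP2 they lay at chromosome 4, 17404692 to 17405303 in SEP3tet and 17398748 to 17399160 in SEP3wt. AP1 and AP2, both needed for normal petals, had their strongest peaks in the top 7.78% and 3.80% of the SEP3tet list and in the top 5.75% and 2.61% of the SEP3wt list. SOC1 (AGL20 in the gene table) and SVP, flowering-time genes that also restrain floral organ genes early on, were targets in both lines, in the top 0.833% and 4.75% of the SEP3tet list and in the top 3.15% and 12.4% of the SEP3wt list. The corepressor genes LUG and SEU, the Polycomb-related genes EMF1 and CLF, and AGL24 had no summit in the window in either line.

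Of 6 MADS partners, 5 were targets in SEP3tet and 5 in SEP3wt, with 4 in both. AP1, a target in both lines, is counted here and among the upstream regulators above. AG, the stamen partner, had a strongest fold of 5.43 in SEP3tet, in the top 15.9% of that list, and 7.99 in SEP3wt, in the top 2.16%. The −log10 q of these AG peaks was 29.2 in SEP3tet and 36.0 in SEP3wt. By fold AG stood above PI in both lists, and below AP3 in SEP3tet but above it in SEP3wt. SEP3 itself had a strongest fold of 7.70 in SEP3tet (top 3.83%) and 3.97 in SEP3wt (top 32.1%), where reads of the transgene and of the native locus cannot be told apart. The −log10 q of these SEP3 peaks was 48.5 in SEP3tet and 28.6 in SEP3wt. The SEP3wt value was above the 23.8 of the strongest AP1 peak in SEP3wt, which stood far higher by fold. SEP4 had folds of 5.10 in SEP3tet and 4.35 in SEP3wt. SEP2 was a target in SEP3tet only, with a fold of 3.07, and SEP1 in SEP3wt only, with a fold of 3.27; these were below the list medians of 3.65 and 3.38.

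**Figure D4:**
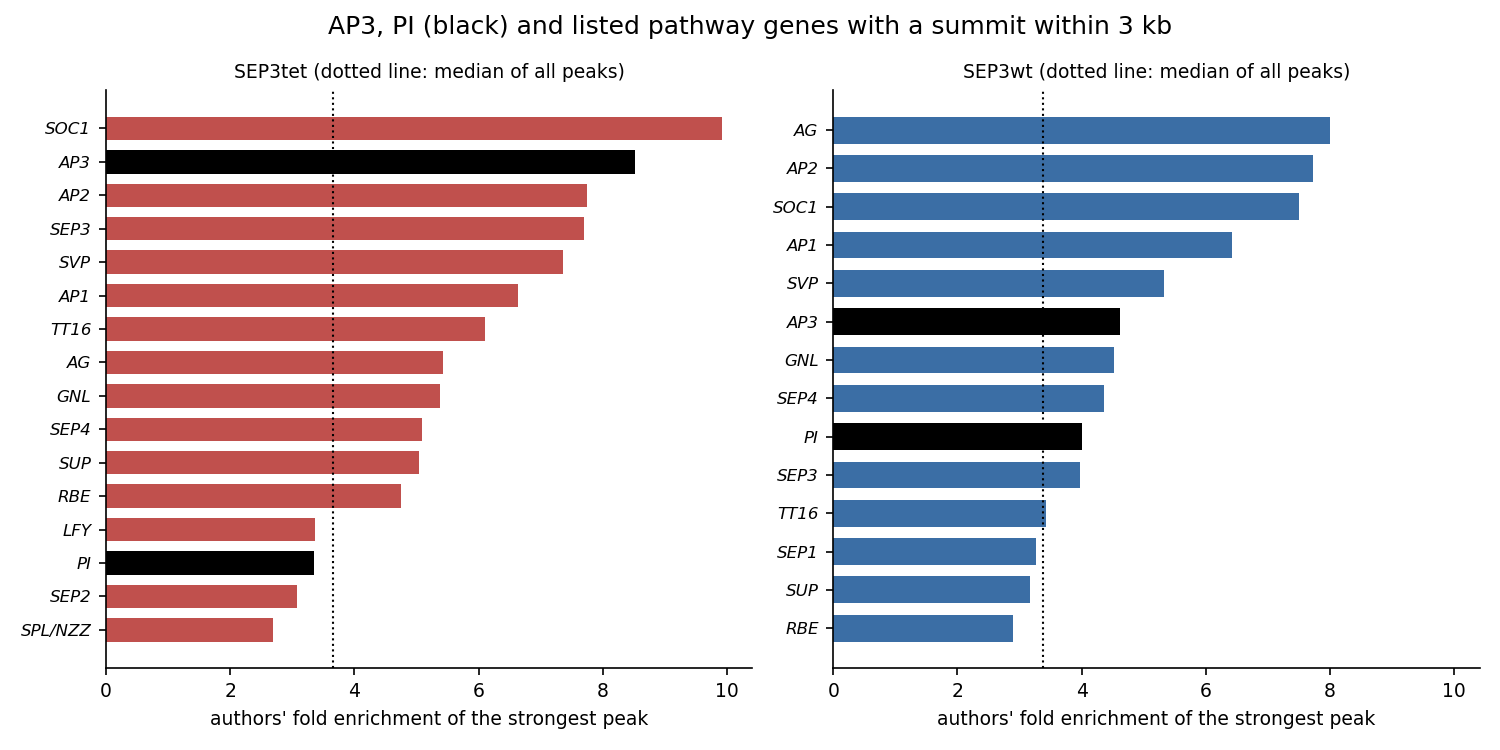
The authors' fold enrichment (x axis, linear from 0) of the strongest peak with its summit in the gene or within 3 kb, for AP3 and PI (black) and the listed pathway genes that had one, 16 genes in SEP3tet (left) and 14 in SEP3wt (right), ordered within each list. The dotted lines mark the medians of all peaks, 3.65 in SEP3tet and 3.38 in SEP3wt; AP3 is above the line in both lists, and PI is below it in SEP3tet and above it in SEP3wt. For AP2, SVP, RBE and TT16 the bars of the 2 lists come from peaks that do not overlap.

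Of the B-sister genes, the closest relatives of AP3 and PI in the MADS family, TT16 was a target in both lines and GOA in neither. TT16, a seed coat gene, had a highest fold of 6.11 in SEP3tet and 3.43 in SEP3wt, and its SEP3wt peak lay nearest to a neighbouring gene. These 2 peaks did not overlap. Of 7 genes reported to be controlled by AP3 and PI, 3 were targets in SEP3tet and 2 in SEP3wt. GNL (CGA1 in the gene table), a GATA factor gene of greening that AP3 and PI repress, had folds of 5.39 in SEP3tet and 4.52 in SEP3wt, from a peak nearest to BGAL12. SPL/NZZ, which is needed for pollen sac formation, had 1 summit in SEP3tet with a fold of 2.69, nearest to a neighbouring gene, and none in SEP3wt. That SEP3tet fold was matched or exceeded by 93.6% of the list, and the −log10 q was 2.67. SUP, also on this list, is given above. NAP, GNC and CRC, like UFO, had no summit in the window in either line.

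The genes most like each member were sought among the 3401 targets of both lines, by the sum over both lists of the absolute log2 difference between strongest folds. Nearest to AP3 were FOLK and EOL2, which share a summit with folds of 8.28 in SEP3tet and 4.68 in SEP3wt and a summed log2 difference of 0.06, and SRS5, with folds of 8.04 in SEP3tet and 4.74 in SEP3wt and a summed log2 difference of 0.12. Nearest to PI were SAT32 and CCP3, each with folds of 3.36 in SEP3tet and 4.03 in SEP3wt and a summed log2 difference of 0.01, and EXO70G1, with folds of 3.36 in SEP3tet and 3.86 in SEP3wt and a summed log2 difference of 0.06. These likenesses rest on 1 value per list, the fold. Neither −log10 q nor width was used, and in both the PI peak exceeded most peaks with a fold like its own.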

How the data were processed

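SEP3 binding was measured by ChIP-seq in 6 inflorescence samples of 2 lines. The authors deposited 1 peak list per line, which the labels of the line's ChIP samples name. The submitters' processing notes name build TAIR10, MACS2 (2.2.7.1), Bowtie2 (2.2.5), Trimmomatic (0.36) and deepTools. The combining of replicates and any use of the mocks as control are not given in the sources used here. The deposited fold (a ratio) and −log10 q values are the authors' own. Depth is unknown.

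Summits, counted from 1, were assigned to protein-coding genes of the RefSeq TAIR10.1 table, which gives no strand. None of its coordinates are printed. As a check of the builds, gene bodies held 39.8% (SEP3tet) and 45.3% (SEP3wt) of unshifted summits, against at least 54.3% and 54.7% with 10 shifts of 1 to 20 kb. Overlap meant at least 1 bp. Places count peaks with the same or a higher fold. Python 3.11.15, pandas 2.3.3 and numpy 2.4.6 were used, and assignment and overlap were checked on simulated peaks. The planned CArG box counts and protein comparison were not made here, since no sequence was used. Genes named are the members, genes at or beside their peaks, listed genes, and the 3 genes nearest in fold to each member. VAMP727 and BGAL12 are named to place a peak. Members and lists were chosen with earlier results of these data known. Alternatives concerned the window, the threshold, the overlap and the ranking.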

Additional observations from a re-analysis of the deposited data

How the results depend on the processing

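Of 43 recalculations of the main values, 19 stayed within the tolerance and 24 moved beyond it. The tolerance was 1.5 times for a count and the exact 95% binomial interval, covering counting error over peaks only, for a share of peaks. That interval treats the peaks of a complete list as independent draws and narrows with a longer list. It served as a yardstick only and holds no spread between replicates. Of the 2 members, 1 was a target in SEP3tet, and likewise 1 in SEP3wt, with a 1-kb window, with gene bodies alone or with the nearest gene only (AP3 each time), and 1 in SEP3tet with a −log10 q of at least 10. Of the 25 listed genes, 14 in SEP3tet and 12 in SEP3wt became 9 in SEP3tet with a 1-kb window, and 3 in SEP3tet and 3 in SEP3wt with gene bodies alone. The share of all genes fell under the same rules, to 12.3% in SEP3tet with the 1-kb window and to 4.53% in SEP3tet and 3.11% in SEP3wt with gene bodies alone, against 21.2% in SEP3tet and 13.7% in SEP3wt with the 3-kb window. Of the 2 shared member peaks, 1 (PI) met an overlap of 50% of both peaks and 1 (AP3) a −log10 q of at least 10.

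For the share of peaks as high or higher, AP3 in SEP3tet (2.30%) became 4.32% among peaks found in both lines and 4.69% among one-to-one pairs. AP3 in SEP3wt (20.8%) became 17.6% among peaks of at most 1 kb, 24.4% among peaks found in both lines and 25.0% among one-to-one pairs. PI in SEP3tet (61.4%) became 33.5% by −log10 q, 77.6% among peaks found in both lines and 82.3% among one-to-one pairs. PI in SEP3wt (32.0%) became 21.3% by −log10 q, 28.6% among peaks of at most 1 kb, 37.4% among peaks found in both lines and 38.0% among one-to-one pairs. The one-to-one pairs were chosen after seeing the data. AP3 stood above PI in each list under each of these rankings; in SEP3wt by −log10 q the margin was 2 places. The subsets of peaks change the denominator by construction; the cause of the PI difference between fold and −log10 q was not tested.

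No paired analysis was possible because each line has a single peak list with no value per replicate. For the same reason no replicate was left out.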
